A study of Mus musculus with 25 samples.

Results

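The comparison described here is between spinal cord astrocytes lacking Smarca4 taken 14 days after a crush injury of the cord and the same kind of cells from uninjured mice. It uses 7 of the 25 libraries of the series, 4 after spinal cord injury (SCI) and 3 uninjured, each from 1 mouse. All 7 mice were GfapCre:Ribotagfl/fl:Smarca4fl/fl on a C57BL6;129S2 background, so the uninjured mice carried the deletion too. Gfap-Cre both removed Smarca4 and switched on a haemagglutinin-tagged ribosomal protein, and the RNA that came down with tagged ribosomes was sequenced, so that any cell with a history of Gfap-Cre activity could contribute. The injury was a complete crush at the level of the tenth thoracic segment, and the piece taken was 3 mm of cord around the lesion centre, with its core, plus 1 mm to either side; uninjured tissue came from the matching region. The deposited table lists 11115 genes. Of these, 6704 genes had over 10 raw counts in all 7 libraries and are called detected throughout. Another 832 genes had 10 or fewer counts in every uninjured library, and 3579 fell in neither class. The classes were cut from the counts themselves, so the direction of the 832 genes is set by their choice and is described without a test.

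Astrocytes clear glutamate, GABA and potassium from the extracellular space, couple to each other through gap junctions and make much of the cholesterol used by neighbouring cells. After injury they become reactive: they enlarge their intermediate filament network, secrete protease inhibitors, cytokines and complement, and those nearest a lesion form a border around infiltrating cells. Smarca4, also known as Brg1, is an ATPase of the BAF chromatin remodelling complexes, which slide and evict nucleosomes; Smarca2, or Brm, is the alternative ATPase. No library from mice with intact Smarca4 was taken after SCI, so the comparison gives the response of the mutant cells and not the effect of the deletion on it.

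The 4 SCI libraries held 69717172 to 102544326 counts and the 3 uninjured libraries 69518976 to 84753493. Levels are given as CPM, counts scaled to the library total, after TMM scaling, a scaling that assumes most genes are alike between libraries. The libraries differed in how many genes had almost no counts. Whether this came from the libraries or from the cells was not tested. SCI libraries had 11 to 116 of the 11115 genes at 10 or fewer counts, whereas uninjured libraries 1, 2 and 3 had 1982, 2853 and 2354. Few genes lay just above that limit: 74 to 97 genes had 11 to 100 counts in an SCI library and 135 to 199 in an uninjured one. In 3259 of the 3579 genes of neither class, at least 1 uninjured library held 10 or fewer counts while another held over 500. The share of genes with 10 or fewer counts in every uninjured library fell with the level after SCI. It was 41.9% of genes under 5 CPM after SCI, 8.94% at 10 to 20 CPM and 0.802% at 50 to 100 CPM, as the plot of detection by level shows. Uninjured libraries were also less alike among themselves. Over the genes detected throughout, the correlation of log2 levels across genes was 0.695 to 0.759 between uninjured libraries, compared with 0.882 to 0.949 between SCI libraries. Principal components were taken over all 11109 tested genes. These included 830 genes low in every uninjured library and 3575 in neither class, which add to any distance between the groups. The first component (49.3% of variance) parted SCI from uninjured libraries, and the second (25.1%) parted the uninjured libraries from each other.

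**Figure D1:**
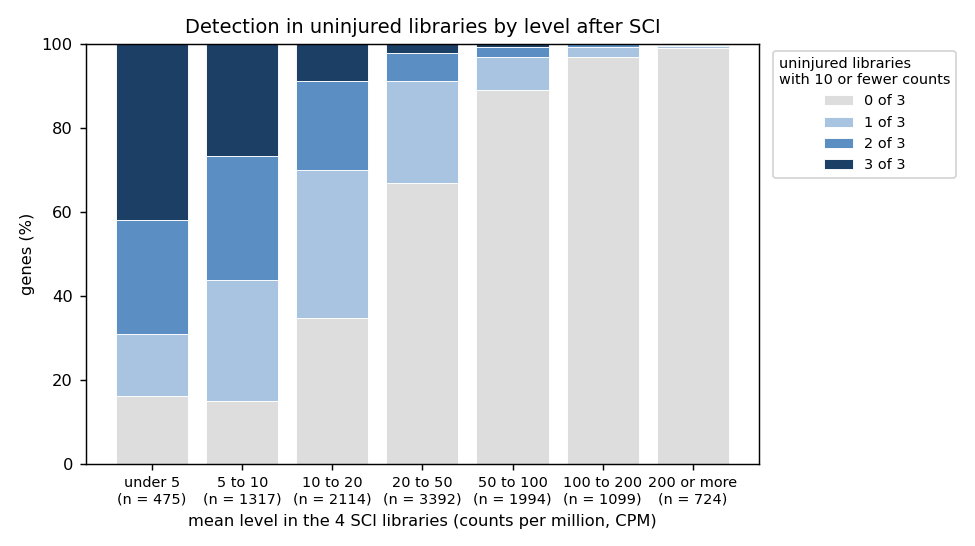
Genes by their mean level in the 4 SCI libraries (CPM, x axis), with the share of each bin (%, y axis) that had 10 or fewer counts in 0, 1, 2 or 3 of the 3 uninjured libraries. The darkest segment, genes low in all 3, shrank from 41.9% of genes under 5 CPM to 0.138% of genes at 200 CPM or more.

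Smarca4 itself (chromosome 9, 21616169 to 21704230 on the plus strand, GRCm38) had counts in all 7 libraries and was not called. It had 18.8, 12.2, 22.6 and 20.4 CPM in SCI libraries 1 to 4, against 13.5, 24.2 and 23.4 CPM in uninjured libraries 1 to 3 (log2 -0.14 ± 0.69, edgeR adjusted p = 0.979), and the groups overlapped. As a share of each deposited table's total, it made up 12.1 to 22.6 CPM in SCI libraries and 13.4 to 23.1 in uninjured Smarca4cKO libraries, beside 54.7 to 85.1 in uninjured WT libraries and 76.7 to 95.4 in uninjured Stat3cKO libraries; levels of different genotypes were not tested against each other. Counts are per gene and do not show whether the remaining reads cover the deleted exons. Of 19 BAF complex genes detected throughout, Smarca2 alone was called, and it fell; 7.13% of all genes detected throughout did. It had 121, 78.4, 120.0 and 104 CPM in SCI libraries 1 to 4, against 165, 231 and 196 CPM in uninjured libraries 1 to 3 (log2 -0.90 ± 0.21, edgeR adjusted p = 0.0221), with every SCI library below every uninjured one; the call was lost without SCI 4 or uninjured 2 (edgeR adjusted p = 0.0579 to 0.0694), and it was lost when only genes detected throughout entered the fit. The other 18 members were not called, and the median of the list was 0.05 on the log2 scale. Smarcc2, a core scaffold subunit of the complex and the member of highest CPM, averaged 214 ± 34.9 CPM after SCI and 203 ± 37.8 CPM in uninjured cord.

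Among the 6704 genes detected throughout, 272 were higher after SCI and 478 lower at an adjusted p under 0.05 (edgeR quasi-likelihood test, Benjamini-Hochberg adjustment over all 11109 genes tested). These are 4.06% and 7.13% of the class; over all tested genes the shares were 10.1% higher (1127 genes, 828 of them low in the uninjured libraries) and 4.31% lower (479 genes). The groups did not overlap in 26.3% of genes detected throughout, and p was under 0.05 before adjustment in 1564 of them. The split between directions depended on the scaling. With TMM factors taken from the genes detected throughout, 350 were higher and 337 lower, and the median log2 difference of the class was then -0.04, against -0.18 with the scaling used here. Over all tested genes the median was 0.20 with it, against 0.07. Calls were concentrated in genes of higher CPM. None of the 561 genes under 20 CPM was called, 45 of 2393 genes at 20 to 50 CPM were, and 308 of 744 genes at 200 CPM or more were. In the authors' deposited table, 304 genes of the class were higher and 496 lower at a false discovery rate under 0.05, and 243 and 418 of these were called here in the same direction. In bulk RNA, fewer cells of a type and less RNA per cell cannot be told apart.

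**Figure D2:**
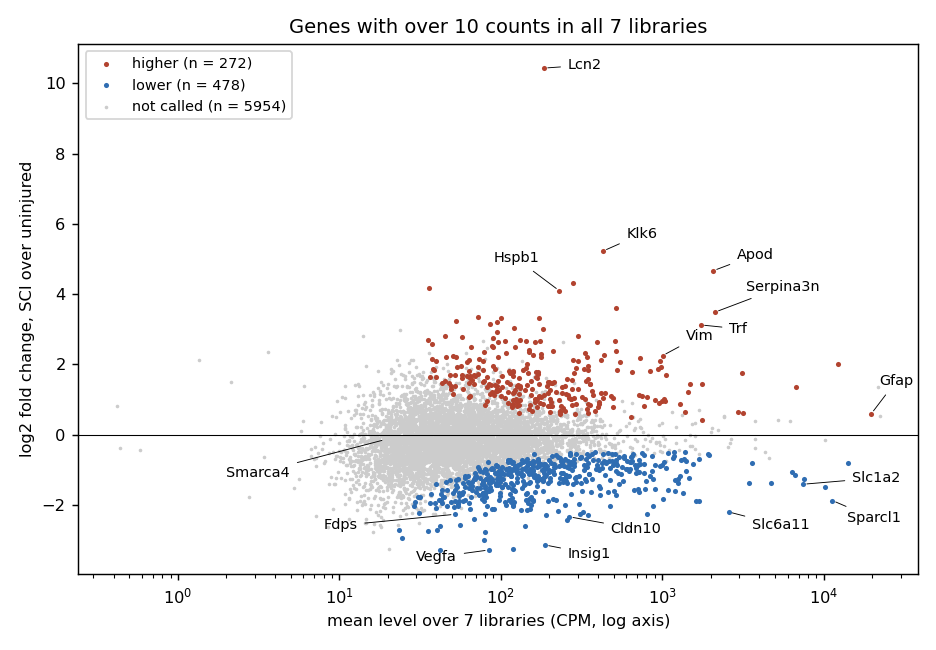
Log2 fold change, SCI over uninjured (y axis), against the mean level over 7 libraries (CPM, log x axis), for the 6704 genes detected throughout; red points were called higher (272), blue lower (478), grey not called (5954). Lcn2 stands alone at 10.43, the next largest rise is Klk6 at 5.23, and the largest fall is Vegfa at -3.29.

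Lcn2 had the largest rise of the 12 named by the selection rule, followed by Klk6, Apod, Fmod, Adap1 and Hspb1. Lcn2, a lipocalin that binds bacterial siderophores and is a long-used marker of reactive astrocytes, had 499.5, 315, 105 and 381 CPM after SCI, against 0.167, 0.319 and 0.221 CPM in uninjured cord. The lowest SCI library stood over 100 CPM and no uninjured library reached 1 CPM, with 14 to 21 raw counts in each of them (log2 10.43 ± 0.74, edgeR adjusted p = 0.000690). Serpina3n, a secreted serine protease inhibitor, had 3978, 3686, 2515 and 3805 CPM after SCI, against 259, 340.2 and 336 CPM in uninjured cord (log2 3.49 ± 0.22, edgeR adjusted p = 0.000569). Hspb1, a small heat shock protein that binds intermediate filaments, had 323, 454, 319.7 and 448 CPM after SCI, against 27.7, 5.58 and 34.4 CPM in uninjured cord (log2 4.1 ± 0.61, edgeR adjusted p = 0.00652). All 4 SCI libraries lay far above the uninjured ones in each of these 3 genes, and in Lcn2 SCI library 3 was the lowest. Klk6, a serine protease abundant in oligodendrocytes, had 903, 830.4, 684 and 543 CPM after SCI, against 31.4, 12 and 15.9 CPM in uninjured cord (log2 5.23 ± 0.42, edgeR adjusted p = 0.000926), and Apod, a lipocalin made by oligodendrocytes and other glia, had 4042, 4181, 3066 and 2833 CPM after SCI, against 141, 161 and 115 CPM in uninjured cord (log2 4.67 ± 0.23, edgeR adjusted p = 0.000224). Fmod, a collagen-binding proteoglycan listed here among fibroblast markers, averaged 475 ± 116 CPM after SCI and 24.1 ± 9.06 CPM in uninjured cord (log2 4.30 ± 0.35, edgeR adjusted p = 0.000926).

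The other large rises were Gsn, which severs actin filaments (log2 3.60), Dkk3, a secreted glycoprotein of the Dickkopf family (3.33), Sema7a, a membrane-anchored semaphorin (3.31), Hpgd, which inactivates prostaglandins (3.31), and Cd109, a co-receptor that dampens TGF-beta signalling (3.24). Each was called with any 1 library left out. Adap1 was called too (log2 4.18), but it had 12 counts in uninjured library 3, and the call was lost without SCI 1, 2, 3 or 4 or uninjured 1 (edgeR adjusted p = 0.0878 to 0.107).

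The largest falls named by the same rule included Vegfa, Apln and Insig1. Vegfa, the principal angiogenic growth factor, had 6.02, 13.6, 25.7 and 25.6 CPM after SCI, against 150.2, 238 and 130.5 CPM in uninjured cord (log2 -3.29 ± 0.52, edgeR adjusted p = 0.00652). Apln, which encodes the peptide apelin, a ligand of an endothelial receptor, had 70.2, 71.7, 129 and 86 CPM after SCI, against 454, 434 and 554 CPM in uninjured cord (log2 -2.43 ± 0.24, edgeR adjusted p = 0.00203). Insig1, which holds the sterol-sensing SREBP complex in the endoplasmic reticulum and is itself switched on by SREBP, had 31.1, 39, 69.3 and 33.9 CPM after SCI, against 473, 231 and 443 CPM in uninjured cord (log2 -3.14 ± 0.36, edgeR adjusted p = 0.00321). No SCI library reached the lowest uninjured library in any of the 3. Heyl, a Notch-induced transcriptional repressor, averaged 19.7 ± 7.66 CPM after SCI and 156 ± 30.2 CPM in uninjured cord (log2 -2.99 ± 0.40, edgeR adjusted p = 0.00539). Mmab, a cobalamin adenosyltransferase whose gene lies head to head with the mevalonate kinase gene Mvk, averaged 17.9 ± 9.82 CPM after SCI and 106 ± 23.3 CPM in uninjured cord (log2 -2.57 ± 0.53, edgeR adjusted p = 0.0120). Smyd1, a lysine methyltransferase best known from muscle, fell by 2.79 on the log2 scale, Dgkb, a diacylglycerol kinase, by 2.73, Actr3b, a variant subunit of the actin-branching Arp2/3 complex, by 2.71, Gpr153, an orphan receptor, by 2.61, and Nwd1 by 2.6. These 5 were called with any 1 library left out. Proca1 fell by 2.94, and the call was lost without SCI 2 or 3 (edgeR adjusted p = 0.0730 to 0.0837). Pim2, a serine/threonine kinase, fell by 2.72, and the call was lost without SCI 1, 2, 3 or 4 or uninjured 1 or 3 (edgeR adjusted p = 0.0545 to 0.123).

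Of the 16 pan-reactive astrocyte genes, a list assembled from published reactive-astrocyte markers, 9 were detected throughout, and 8 of them rose while none fell (6 to 7 with 1 library left out), where 4.06% of all genes detected throughout rose. The median of the 9 was 2.25 on the log2 scale, against -0.18 for the class. Besides Lcn2, Serpina3n, Hspb1 and Cd109, Vim, the intermediate filament protein vimentin, had 1775, 1498, 1338 and 1482 CPM after SCI, against 262, 407 and 293 CPM in uninjured cord (log2 2.25 ± 0.19, edgeR adjusted p = 0.00134). Gfap, the astrocyte intermediate filament protein, had 20498, 21295, 23477 and 27177 CPM after SCI, against 15058, 15365 and 15493 CPM in uninjured cord (log2 0.59 ± 0.17, edgeR adjusted p = 0.0492); the call was lost without SCI 2, 3 or 4 or uninjured 1, 2 or 3 (edgeR adjusted p = 0.0654 to 0.127). Cp, the copper ferroxidase ceruloplasmin, rose with log2 1.92, and the call was lost without SCI 1, 2 or 4 or uninjured 3 (edgeR adjusted p = 0.0640 to 0.0780). Cd44, the hyaluronan receptor, rose with log2 1.39. Nes, nestin, was the 1 member detected throughout that was not called, at log2 1.23 (edgeR adjusted p = 0.251). S1pr3, a sphingosine-1-phosphate receptor, was in neither class but was called higher; it had 28555, 11460, 10369 and 16588 counts after SCI, against 789, 7 and 1180 counts in uninjured cord (edgeR adjusted p = 0.0476), and the call was lost without SCI 1, 2, 3 or 4 or uninjured 1 or 3 (edgeR adjusted p = 0.0589 to 0.113). Steap4, Cxcl10 and Osmr had 10 or fewer counts in every uninjured library.

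The A1-type and A2-type lists, from published comparisons of neuroinflammation with ischaemia, were small here, with 3 members each detected throughout. All 3 A1-type members rose, where 4.06% of all genes detected throughout did. H2-D1, a class I histocompatibility heavy chain whose reads can be shared with its close relatives, averaged 274 ± 89.3 CPM after SCI and 42.9 ± 33 CPM in uninjured cord (log2 2.67 ± 0.53, edgeR adjusted p = 0.0101). Serping1, the C1 inhibitor, averaged 151 ± 50.2 CPM after SCI and 24.4 ± 10.0 CPM in uninjured cord (log2 2.63 ± 0.40, edgeR adjusted p = 0.00652), and C3, the central complement component, had 1025, 1239, 845 and 1051 CPM after SCI, against 548, 492 and 439.7 CPM in uninjured cord (log2 1.08 ± 0.16, edgeR adjusted p = 0.00652). Of the A2-type members, Cd109 rose; S100a10, an annexin partner, had log2 0.93 (edgeR adjusted p = 0.232) and Emp1 log2 0.98 (edgeR adjusted p = 0.191). Emp1 had 1 uninjured library within the SCI range, and it was called without uninjured 3 (log2 1.51, edgeR adjusted p = 0.0202).

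Of 34 genes of the cytoskeleton and of migration detected throughout, 16 rose, none fell and 18 were not called (12 to 17 with 1 library left out), with a list median of 1.06 against -0.18 for the class, of which 4.06% rose. Of its 11 members at 200 CPM or more 8 rose, where 14.8% of all genes at that level did. S100a6, a calcium-binding protein of migrating cells, had 1004, 644, 732 and 814 CPM after SCI, against 188, 105 and 83 CPM in uninjured cord (log2 2.67 ± 0.32, edgeR adjusted p = 0.00353). Tagln2, an actin-bundling protein, averaged 254 ± 67.6 CPM after SCI and 41.3 ± 23.6 CPM in uninjured cord (log2 2.62 ± 0.47, edgeR adjusted p = 0.00708). In both, every SCI library lay above every uninjured one. The actin crosslinker Flna rose with log2 1.82, and the call was lost without SCI 1, 2 or 4 (edgeR adjusted p = 0.0533 to 0.0666). The membrane-actin linker Msn rose with 1.75, the nuclear lamin Lmna with 1.4 and the adhesion protein Tln1 with 1.22. The small GTPases Rac1 (-0.37) and Cdc42 (0.27) and the cytoplasmic actin Actg1 (-0.15) were not called.

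**Figure D3:**
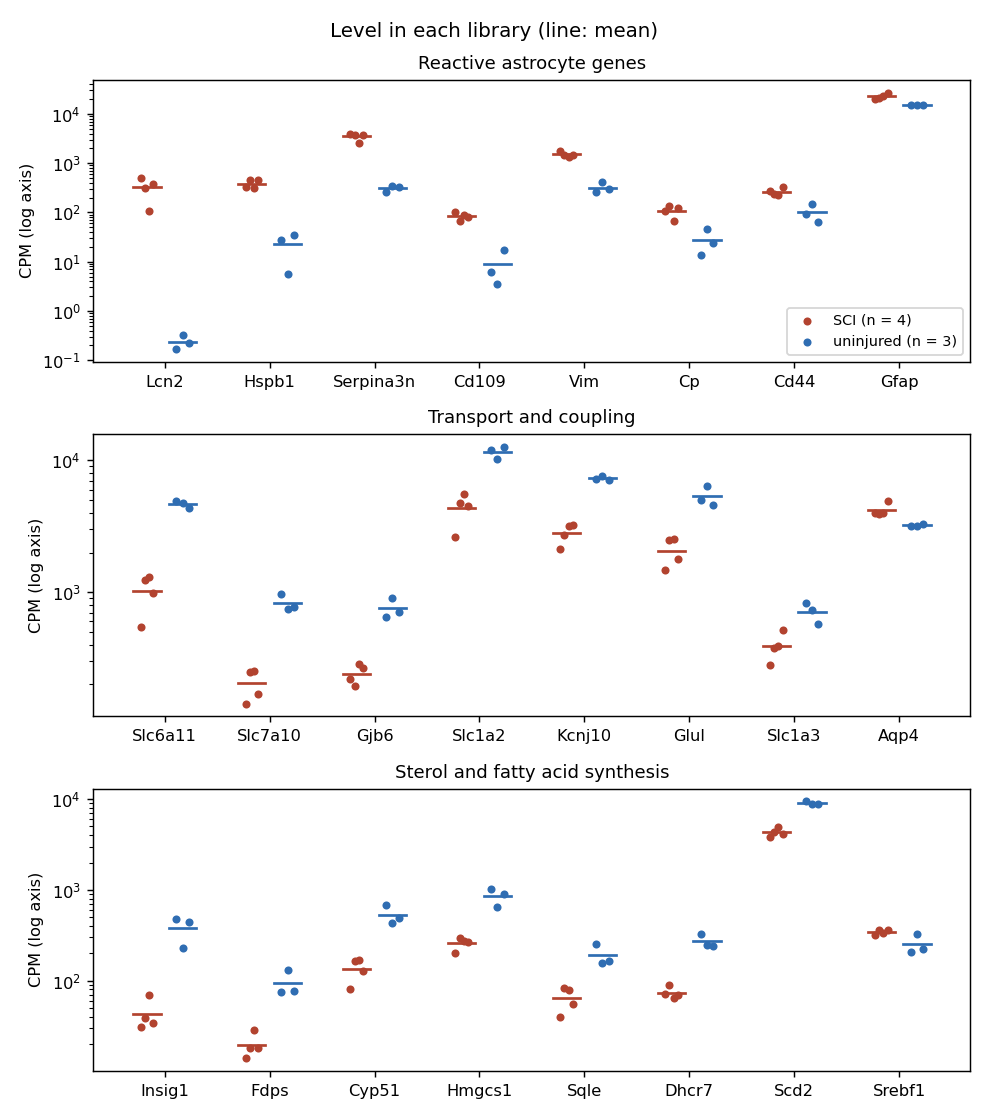
Level of 24 genes in each library (CPM, log y axis): reactive astrocyte genes, transport and coupling genes, and sterol and fatty acid synthesis genes, with SCI libraries (red, n = 4) left of uninjured libraries (blue, n = 3) and a line at each group's mean. Reactive genes lie higher in every SCI library, transport and synthesis genes lower except Aqp4 and Srebf1, which were not called.

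Most genes by which astrocytes take up transmitters and potassium fell. Of 20 genes for glutamate, GABA and potassium handling, all detected throughout, 17 fell and none rose (13 to 17 with 1 library left out; 15 fell and 1 rose with scaling from the genes detected throughout), where 7.13% of all genes detected throughout fell. Most of the list is highly counted: of its 18 members at 200 CPM or more 16 fell (88.9%), where 26.6% of all genes at that level did. The list median was -1.4 against -0.18 for the class. Slc6a11, the GABA transporter GAT3, had 548, 1235, 1307 and 978 CPM after SCI, against 4949, 4721 and 4365 CPM in uninjured cord (log2 -2.20 ± 0.28, edgeR adjusted p = 0.00452). Slc1a2, the main glutamate transporter GLT-1, had 2644, 4783, 5532 and 4539 CPM after SCI, against 11961, 10331 and 12639 CPM in uninjured cord (log2 -1.41 ± 0.25, edgeR adjusted p = 0.00655). Slc7a10, an exchanger of serine and other small amino acids, had 143, 248, 252 and 168 CPM after SCI, against 975, 745 and 778 CPM in uninjured cord (log2 -2.04 ± 0.23, edgeR adjusted p = 0.00303). In each, SCI library 1 was the lowest and all SCI libraries were below the uninjured ones. Slc1a3, the glutamate transporter GLAST, fell less (281, 380.0, 389.9 and 515 CPM after SCI, against 826, 728 and 575 CPM in uninjured cord; log2 -0.86 ± 0.22, edgeR adjusted p = 0.0325), and the call was lost without SCI 1, 2 or 3 or uninjured 1 or 2 (edgeR adjusted p = 0.0576 to 0.0964). The potassium channel Kcnj10 fell by 1.38 on the log2 scale, glutamine synthetase, Glul, by 1.37, and the gap junction proteins Gja1 and Gjb6 by 0.83 and 1.64. Atp1b2, the sodium pump's beta subunit, fell by 0.81, and the call was lost without SCI 2, 3 or 4 (edgeR adjusted p = 0.0526 to 0.0685). Aqp4, the water channel of astrocyte endfeet, went the other way without passing the test: 3989, 3902, 3986 and 4958 CPM after SCI, against 3184, 3196 and 3267 CPM in uninjured cord (log2 0.39 ± 0.14, edgeR adjusted p = 0.115); it was called higher with the other scaling (edgeR adjusted p = 0.0386). Dag1, dystroglycan, another endfoot protein, was not called either (log2 0.09).

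Identity genes divided. Of 33 genes of the identity and homeostatic list detected throughout, 17 fell and none rose (14 to 17 with 1 library left out; 3 also rose without SCI 1, and 2 with DESeq2 or with only genes detected throughout in the fit), with a median of -0.73. Of the 29 members at 200 CPM or more 16 fell (55.2%), where 26.6% of all genes at that level did. Cldn10, a claudin, had 57.3, 97.8, 133 and 101 CPM after SCI, against 487, 502 and 489 CPM in uninjured cord (log2 -2.34 ± 0.26, edgeR adjusted p = 0.00286), and Itih3, which binds hyaluronan, averaged 306 ± 144 CPM after SCI and 1477 ± 298 CPM in uninjured cord (log2 -2.27 ± 0.37, edgeR adjusted p = 0.00652). Sparcl1, a secreted protein that promotes synapse formation, had 3882, 6090.1, 6182 and 4994 CPM after SCI, against 20181, 18481 and 19614 CPM in uninjured cord (log2 -1.88 ± 0.19, edgeR adjusted p = 0.00226). The uninjured libraries were tightly grouped in Cldn10 and Sparcl1 and the SCI libraries spread more, with library 1 lowest. Fgfr3, a growth factor receptor of the astrocyte lineage, averaged 430.2 ± 153 CPM after SCI and 1255 ± 63.1 CPM in uninjured cord (log2 -1.54 ± 0.30, edgeR adjusted p = 0.00934), and Aldoc, the brain aldolase, 4738 ± 1355 CPM after SCI and 11358 ± 401 CPM in uninjured cord (log2 -1.26 ± 0.24, edgeR adjusted p = 0.00917). In contrast, the lineage transcription factor Sox9 had 189, 321, 305 and 334 CPM after SCI, against 235, 215 and 229 CPM in uninjured cord (log2 0.35 ± 0.21, edgeR adjusted p = 0.439), with overlapping groups; it was called without SCI 1 (log2 0.52, edgeR adjusted p = 0.0405). The calcium-binding protein S100b (log2 -0.12), the transcription factor Nfia (-0.12) and the lipoprotein Apoe (0.53, edgeR adjusted p = 0.173) were not called; for Apoe, it was called without SCI 1 (log2 0.66, edgeR adjusted p = 0.0452).

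Most sterol synthesis genes fell. Of 29 genes of cholesterol and fatty acid synthesis detected throughout, 20 fell and none rose (16 to 20 with 1 library left out; 17 fell and 1 rose with the other scaling), with a list median of -1.53. Of its 10 members at 200 CPM or more 7 fell, where 26.6% of all genes at that level did. Over all levels 7.13% of the genes detected throughout fell. Fdps, which makes farnesyl diphosphate, had 14, 17.9, 28.5 and 18 CPM after SCI, against 74.6, 132 and 76.7 CPM in uninjured cord (log2 -2.27 ± 0.40, edgeR adjusted p = 0.00683). Scd2, a fatty acid desaturase, had 3865, 4389, 4965 and 4150.2 CPM after SCI, against 9411, 8768 and 8933 CPM in uninjured cord (log2 -1.06 ± 0.14, edgeR adjusted p = 0.00489). Every SCI library lay below every uninjured library in both. Squalene epoxidase, Sqle, fell by 1.57, Cyp51 by 1.98 and Dhcr7 by 1.89, while of the regulators Srebf2 fell by 1.08, and Srebf1 (log2 0.45) and Scap (0.10) were not called; Srebf1 was called higher with the other scaling (edgeR adjusted p = 0.0453), and it was called without uninjured 2 (log2 0.69, edgeR adjusted p = 0.0140). Fasn, the fatty acid synthase, was not called at -0.62 (edgeR adjusted p = 0.125).

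Promoters were read for 4 genes. Those of Hmgcs1, a sterol gene that fell, and of Socs3 and Cxcl10, both low in the uninjured libraries, are shown for the matches they hold; that of Serpina3n held no match to the motifs below and is not shown. Each is the 250 bases before the gene's start in RefSeq (GRCm38.p6), 5′ to 3′ on the gene's strand, with capitals for matches to AP-1 (TGANTCA), STAT (TTCNNNGAA), NF-kB (GGGANNTCC), interferon (TTCNNTTTC) or sterol (TCACNCCAC) motifs on either strand. Hmgcs1, the synthase that makes HMG-CoA, was picked after its letters were seen, as the 1 of 12 called sterol and fatty acid genes with a promoter sequence that holds the sterol motif; that motif is in 1.22% of all 27025 promoters. It lies at chr13:119690101-119690350, plus strand, and the match starts 137 bases before the gene's start.
Hmgcs1: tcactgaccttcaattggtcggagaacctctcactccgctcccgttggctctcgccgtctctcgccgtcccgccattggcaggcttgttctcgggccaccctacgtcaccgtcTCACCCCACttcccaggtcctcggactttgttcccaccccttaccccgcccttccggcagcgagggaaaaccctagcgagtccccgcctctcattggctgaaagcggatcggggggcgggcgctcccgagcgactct
Its level was 204, 296, 273 and 269 CPM after SCI, against 1024, 641 and 895 CPM in uninjured cord (log2 -1.71 ± 0.20, edgeR adjusted p = 0.00310), the SCI libraries all below the uninjured ones.

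Socs3, the feedback inhibitor of STAT3 signalling (chr11:117969367-117969616, minus strand), has 1 STAT match, 154 bases before its start; 8.13% of all promoters hold that motif.
Socs3: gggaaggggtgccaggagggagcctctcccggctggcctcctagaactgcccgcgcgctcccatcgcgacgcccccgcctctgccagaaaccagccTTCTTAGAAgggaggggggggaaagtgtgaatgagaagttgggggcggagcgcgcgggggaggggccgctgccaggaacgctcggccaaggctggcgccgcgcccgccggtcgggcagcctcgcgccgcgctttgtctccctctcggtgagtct
Cxcl10, a chemokine that attracts T cells (chr5:92348890-92349139, minus strand), has an interferon match 213 bases before its start, 2 NF-kB matches that overlap, the first 103 bases before it, and an AP-1 match 74 bases before it. These motifs are in 8.18%, 4.11% and 7.82% of all promoters.
Cxcl10: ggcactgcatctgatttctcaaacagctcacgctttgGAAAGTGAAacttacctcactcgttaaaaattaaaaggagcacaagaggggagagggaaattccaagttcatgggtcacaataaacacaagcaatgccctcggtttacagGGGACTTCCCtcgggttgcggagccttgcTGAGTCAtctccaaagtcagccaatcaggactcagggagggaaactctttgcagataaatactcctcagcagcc
A match is only a run of letters. Among the 272 genes detected throughout and higher, 195 had a promoter sequence, and 6.15% of these held an AP-1 match, 4.62% a STAT match, 7.69% an interferon match, 7.69% an NF-kB match and 2.05% a sterol match. The shares among the 8459 tested genes with a promoter sequence were 5.17%, 7.13%, 7.28%, 5.52% and 1.25%. Among the 369 genes detected throughout and lower with a promoter sequence they were 5.69%, 7.59%, 7.05%, 5.96% and 2.98%. Of the 611 genes low in the uninjured libraries with a promoter sequence, 7.36%, 8.18%, 9.66%, 6.06% and 1.31% held these motifs, in the same order.

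Part of the glycolysis list fell. Of 24 glycolysis and lactate genes, 9 fell and 1 rose (6 to 9 with 1 library left out; 6 fell with the other scaling), with a median of -0.62. Of its 16 members at 200 CPM or more 8 fell, where 26.6% of all genes at that level did. Over all levels 7.13% of the genes detected throughout fell and 4.06% rose. Pygm, a glycogen phosphorylase, had 240.1, 478, 426 and 373 CPM after SCI, against 1235, 1321 and 946 CPM in uninjured cord (log2 -1.62 ± 0.24, edgeR adjusted p = 0.00652). Pfkfb3, which makes the activator of phosphofructokinase, averaged 112 ± 25.3 CPM after SCI and 276 ± 49.6 CPM in uninjured cord (log2 -1.30 ± 0.22, edgeR adjusted p = 0.00652). The rise was in Slc16a1, the lactate transporter MCT1 found in oligodendrocytes and endothelium, with 433, 404, 261 and 442 CPM after SCI, against 122, 132 and 141 CPM in uninjured cord (log2 1.55 ± 0.21, edgeR adjusted p = 0.00539). All SCI libraries were above the uninjured ones for Slc16a1 and below them for Pygm.

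Lysosomal and protease genes rose in part, where 4.06% of all genes detected throughout rose and 7.13% fell. In the lysosome and phagocytosis list 7 of 33 rose and 1 fell (6 to 10 with 1 library left out; 9 rose and none fell with the other scaling). Ctsb, cathepsin B, had 4102, 4879, 4145 and 4745 CPM after SCI, against 1325, 1364 and 1275 CPM in uninjured cord (log2 1.76 ± 0.13, edgeR adjusted p = 0.000761). Cd9, a tetraspanin, had 1043, 1308, 935 and 1114 CPM after SCI, against 226, 237 and 271 CPM in uninjured cord (log2 2.17 ± 0.16, edgeR adjusted p = 0.000761). Both groups were tight in these genes and lay well apart. Lyz2, lysozyme of myeloid cells, had 182, 337, 68.5 and 188 CPM after SCI, against 13.5, 36.7 and 20.2 CPM in uninjured cord (log2 3.05 ± 0.59, edgeR adjusted p = 0.00942), highest in SCI library 2 and lowest in SCI library 3. Axl, a receptor for apoptotic cells, fell with log2 -0.75, and the call was lost without SCI 1 or uninjured 2 or 3 (edgeR adjusted p = 0.0603 to 0.0764). Among 13 matrix proteases and inhibitors 6 rose and 2 fell (6 with any 1 library left out). Adamts4, which cleaves proteoglycans, averaged 139 ± 12.9 CPM after SCI and 24.5 ± 11.1 CPM in uninjured cord (log2 2.50 ± 0.34, edgeR adjusted p = 0.00571), and the inhibitor Timp2 794 ± 129.5 CPM after SCI and 152 ± 51.3 CPM in uninjured cord (log2 2.39 ± 0.27, edgeR adjusted p = 0.00303). The inhibitors Timp4 and Timp3 fell by 1.35 and 0.97 on the log2 scale. Cd9, Itgb1 and Cd44 were among the 4 of 17 integrin and adhesion genes that rose, and Alcam fell by 1.77. Cd81, another tetraspanin and the member of highest CPM, had log2 -0.35 (edgeR adjusted p = 0.0732).

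Matrix genes were mixed, where 4.06% of all genes detected throughout rose and 7.13% fell. Of 11 collagen, laminin and scar matrix genes detected throughout, 4 rose (2 to 4 with 1 library left out, farthest without SCI 1 or SCI 2 or SCI 4 or uninjured 2), and 24 of the 43 in the table were in neither class. Cyr61, a matricellular protein induced by mechanical stress, had 214, 143, 109 and 146 CPM after SCI, against 15.3, 16 and 19 CPM in uninjured cord (log2 3.19 ± 0.30, edgeR adjusted p = 0.00168). Spp1, osteopontin, had 139, 253, 26.3 and 132 CPM after SCI, against 13.9, 25.6 and 32.3 CPM in uninjured cord (log2 2.52 ± 0.70, edgeR adjusted p = 0.0493); SCI library 3 lay within the uninjured range, and the call was lost without SCI 1, 2 or 4 or uninjured 1, 2 or 3 (edgeR adjusted p = 0.0743 to 0.132). Col1a1, a fibrillar collagen chain, averaged 227 ± 83.2 CPM after SCI and 44.8 ± 28.4 CPM in uninjured cord (log2 2.34 ± 0.50, edgeR adjusted p = 0.0149). Sparc, a collagen-binding protein, had log2 -0.14 (edgeR adjusted p = 0.765). In the proteoglycan list 1 of 19 rose and 4 fell (1 to 5 with 1 library left out, farthest without SCI 2). Bcan, brevican, a proteoglycan of perineuronal matrix, had 498, 749, 652 and 652 CPM after SCI, against 2187, 1723 and 1897 CPM in uninjured cord (log2 -1.60 ± 0.16, edgeR adjusted p = 0.00220). Ptprz1, a receptor phosphatase that carries chondroitin sulfate, averaged 157 ± 50.4 CPM after SCI and 378 ± 89.8 CPM in uninjured cord (log2 -1.27 ± 0.27, edgeR adjusted p = 0.0146); the call was lost without SCI 2 (edgeR adjusted p = 0.0501). Vcan, versican, rose with log2 1.66, and the call was lost without SCI 1, 2 or 4 or uninjured 1 or 2 (edgeR adjusted p = 0.0931 to 0.134). Sdc3, a syndecan, fell with log2 -0.57, and the call was lost without SCI 2, 3 or 4 or uninjured 1 (edgeR adjusted p = 0.0590 to 0.0723).

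Few complement, antigen presentation and interferon genes were detected throughout, and none of these fell. The shares over all genes detected throughout were 4.06% higher and 7.13% lower. In the complement and acute phase list 5 of 7 rose (3 to 4 with 1 library left out, farthest without SCI 1 or SCI 4 or uninjured 3), among them Serping1, C3 and Cp. In antigen presentation 3 of 5 rose (3 to 4 with 1 library left out). B2m, the light chain of class I molecules, had 897, 1184, 748 and 1062 CPM after SCI, against 479.5, 496 and 379 CPM in uninjured cord (log2 1.11 ± 0.19, edgeR adjusted p = 0.00652). Of 6 interferon response genes 1 rose, Ifitm3, a membrane protein that blocks viral entry, with 83.7, 135, 84.4 and 104 CPM after SCI, against 16.5, 21.8 and 15.6 CPM in uninjured cord (log2 2.50 ± 0.32, edgeR adjusted p = 0.00489). Ifit3, an interferon-induced antiviral protein, had 66.6, 101, 181 and 83.6 CPM after SCI, against 12.3, 64.5 and 12.2 CPM in uninjured cord (log2 1.86 ± 0.70, edgeR adjusted p = 0.148), its uninjured library 2 close to the lowest SCI library; it was called without uninjured 2 (log2 3.15, edgeR adjusted p = 0.00651). Another 9 interferon genes were low in every uninjured library and 17 were in neither class.

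Signalling genes did not move as a block, and 4.06% of all genes detected throughout rose and 7.13% fell. In the STAT3 and IL-6 family list 4 of 14 rose and 3 fell, with 6 and 2 under the other scaling. The rises were Lcn2, Vim, Gfap and Ccnd1, the last a cyclin that drives entry into the cell cycle, with 318, 281, 252 and 311 CPM after SCI, against 47, 42.3 and 19.4 CPM in uninjured cord (log2 3.00 ± 0.32, edgeR adjusted p = 0.00263). Stat3 itself had 273, 248, 204 and 181 CPM after SCI, against 126, 133 and 52.3 CPM in uninjured cord (log2 1.13 ± 0.33, edgeR adjusted p = 0.0621); the groups did not overlap, and it was called with the other scaling (edgeR adjusted p = 0.0357); with the scaling used here it was called without uninjured 3 (log2 0.81, edgeR adjusted p = 0.0380). Cntfr, the receptor of ciliary neurotrophic factor, fell to 315 ± 65.4 CPM after SCI, against 836 ± 225 CPM in uninjured cord (log2 -1.41 ± 0.24, edgeR adjusted p = 0.00652), and the kinase Jak1 fell by 1.05 on the log2 scale. Il6st, the shared receptor subunit gp130, had log2 -0.42 with overlapping groups; it was called without uninjured 2 (log2 -0.62, edgeR adjusted p = 0.0214). In the TGF-beta and BMP list 4 of 19 rose and 1 fell (1 to 4 with 1 library left out, farthest without SCI 2 or SCI 4). Id1, a target of BMP signalling, averaged 81 ± 23.2 CPM after SCI and 26.6 ± 4.94 CPM in uninjured cord (log2 1.61 ± 0.36, edgeR adjusted p = 0.0183); the call was lost without SCI 2 or 4 (edgeR adjusted p = 0.0708 to 0.0759). Bmp6 rose with log2 1.48, and the call was lost without SCI 1, 2, 3 or 4 or uninjured 1 (edgeR adjusted p = 0.0515 to 0.175). Id2 fell with log2 -0.80, and the call was lost without SCI 1, 2, 3 or 4 or uninjured 1 or 3 (edgeR adjusted p = 0.0693 to 0.0987).

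Among 13 cytokine genes 2 rose and 3 fell (1 to 2 with 1 library left out, farthest without SCI 1 or SCI 2 or SCI 4 or uninjured 1); with the other scaling 3 rose and 1 fell. Of all genes detected throughout 4.06% rose and 7.13% fell. Lgals1, galectin 1, had 189, 249, 306 and 328 CPM after SCI, against 88.7, 126 and 121 CPM in uninjured cord (log2 1.26 ± 0.24, edgeR adjusted p = 0.00819). Il33, an alarmin, fell with log2 -0.75, and the call was lost without SCI 1, 2 or 4 or uninjured 1 or 3 (edgeR adjusted p = 0.0530 to 0.0964). Cxcl14, a chemokine, fell with log2 -0.65, and the call was lost without SCI 1, 2, 3 or 4 or uninjured 1 or 2 (edgeR adjusted p = 0.0860 to 0.122). Tnfrsf1a, the TNF receptor, was the 1 of 12 inflammatory receptor and NF-kB genes that rose (log2 0.67), and the call was lost without SCI 2, 3 or 4 or uninjured 1 or 3 (edgeR adjusted p = 0.0634 to 0.0859). Of 18 transcription factors 3 rose and 1 fell (1 to 3 with 1 library left out, farthest without uninjured 2). Sox10, a factor of oligodendrocyte and Schwann cell lineages, had 555, 575, 417 and 363 CPM after SCI, against 114, 115 and 163 CPM in uninjured cord (log2 1.87 ± 0.23, edgeR adjusted p = 0.00393). Rfx4, an astrocyte-lineage factor, fell to 111 ± 12.4 CPM after SCI, against 268 ± 9.87 CPM in uninjured cord (log2 -1.27 ± 0.15, edgeR adjusted p = 0.00303). Jun, an AP-1 subunit, rose with log2 1.67, and the call was lost without SCI 1, 2, 3 or 4 or uninjured 2 (edgeR adjusted p = 0.0835 to 0.107); Jund, another, rose with log2 0.88, and the call was lost without uninjured 2 or 3 (edgeR adjusted p = 0.0583 to 0.0593).

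**Figure D4:**
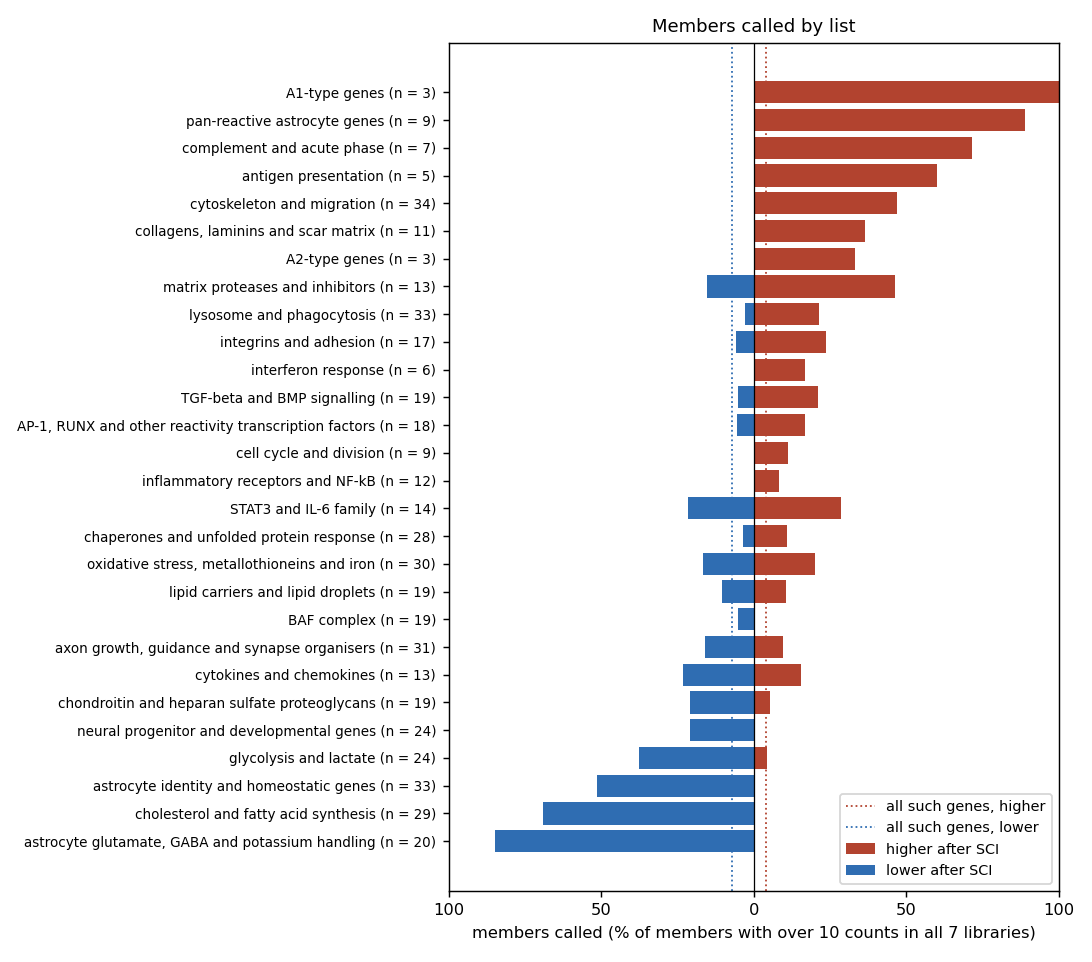
Share of each list's members detected throughout that were called higher (red, to the right) or lower (blue, to the left) after SCI, in percent, with n members beside each name and dotted lines at the shares over all genes detected throughout, 4.06% and 7.13%. Transport, sterol and identity lists lie far to the left and reactive and complement lists to the right.

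Markers of other cells moved with SCI as well, where 4.06% of all genes detected throughout rose and 7.13% fell. In the mature oligodendrocyte list all 16 markers were in the table, 10 of 14 detected throughout rose and none fell, and their summed level was 32416 to 45104 CPM in SCI libraries and 7477 to 15496 CPM in uninjured libraries. Mbp, myelin basic protein, had 21683, 15951, 18310.0 and 16107 CPM after SCI, against 3032, 6016 and 4397 CPM in uninjured cord (log2 2.01 ± 0.26, edgeR adjusted p = 0.00509). Trf, transferrin, which oligodendrocytes secrete, had 3860.4, 3106, 2216 and 2046 CPM after SCI, against 185, 467 and 316 CPM in uninjured cord (log2 3.12 ± 0.38, edgeR adjusted p = 0.00393). None of these SCI libraries fell into the uninjured range. The 2 of the 16 markers not detected throughout were in neither class. Mog, a myelin surface protein, was not called (log2 1.16, edgeR adjusted p = 0.176), but it was called without uninjured 2 (log2 1.77, edgeR adjusted p = 0.0289). Oligodendrocyte progenitor markers summed to 3571 to 4346 CPM after SCI and 2357 to 2457 CPM in uninjured cord, with 3 of 10 called higher. Pdgfra, the progenitor's growth factor receptor, had log2 0.70 with overlapping groups; it was called without uninjured 3 (log2 1.38, edgeR adjusted p = 0.0233). Schwann cell markers summed to 10966 to 14376 CPM after SCI and 3411 to 5596 CPM in uninjured cord, with 4 of 6 called higher. The astrocyte marker list summed to 37664 to 51294 CPM after SCI and 55528 to 57358 CPM in uninjured cord, with 9 of 15 lower and 1 higher. All 15 were at 200 CPM or more, where 26.6% of all genes detected throughout fell and 14.8% rose. At that level 8 of 10 mature oligodendrocyte, 3 of 6 progenitor and 4 of 4 Schwann cell markers rose. The part of these lists in the rises and falls above was not tested.

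Myeloid markers were mostly not detected throughout. Of 20 monocyte and macrophage markers 9 were in the table. Lyz2 was the 1 detected throughout, and the other 8 were in neither class. The list summed to 460 to 1432 CPM after SCI and 33.5 to 224 CPM in uninjured cord. Gpnmb, a glycoprotein of lipid-laden macrophages, had 242, 501, 158 and 331 CPM after SCI, against 0.167, 40.3 and 0.0651 CPM in uninjured cord, and Cd68, a lysosomal protein of phagocytes, had 29.2, 132, 24.7 and 73.5 CPM after SCI, against 0, 24.9 and 0 CPM in uninjured cord. SCI library 2 was the highest in both. Neither Gpnmb nor Cd68 was called (edgeR adjusted p = 0.211 and 0.614), and none of the 8 markers in neither class was. Of 15 microglia markers 12 were listed, and their sum was 465 to 1409 CPM after SCI and 189 to 597 CPM in uninjured cord, so that the groups overlapped. Fibroblast and meningeal markers summed to 1578 to 2276 CPM after SCI and 871 to 1166 CPM in uninjured cord, with Col1a1 and Fmod called. Neuronal markers summed to 1209 to 1474 CPM after SCI and 613 to 776 CPM in uninjured cord. The median log2 change of those detected throughout was -0.32, against the direction of the sum. Elavl3 averaged 377 CPM after SCI and 60.1 CPM in uninjured cord, and Tubb3 127 and 22.9 CPM. Neither was called (edgeR adjusted p = 0.300 and 0.315). Of 9 detected throughout, Gap43, a growth cone protein, rose (log2 2.49), as did Uchl1, a ubiquitin hydrolase (log2 2.30), and Nefm, a neurofilament, fell (log2 -1.46). For Uchl1 the call was lost without SCI 1, 2, 3 or 4 or uninjured 1 or 3 (edgeR adjusted p = 0.0616 to 0.0892), and for Nefm the call was lost without SCI 4 or uninjured 2 (edgeR adjusted p = 0.0602 to 0.0751). Snap25, a synaptic protein, had 39.8, 91.2, 94.9 and 49.4 CPM after SCI, against 138, 147 and 158 CPM in uninjured cord (log2 -1.10 ± 0.33, edgeR adjusted p = 0.0675) and was not called. Of neutrophil markers only Csf3r was in the table, of T and NK cell markers only Thy1, which neurons also express, and no B cell or erythrocyte marker was. Pericyte and smooth muscle markers summed to 325 to 413 CPM after SCI and 74.5 to 244 CPM in uninjured cord, and ependymal markers to 287 to 385 CPM after SCI and 16.4 to 171 CPM in uninjured cord. Endothelial markers summed to 27.7 to 52.3 CPM after SCI and 24.4 to 78.3 CPM in uninjured cord. These 3 lists had 2, 1 and 1 members detected throughout, none of them called. Their other members were low in every uninjured library, a class whose direction is set by its choice, or in neither class. The 2 pericyte markers detected throughout, Pdgfrb (log2 -1.21) and Notch3 (-0.68), went against the sum of their list. Foxj1, the ependymal one, had log2 1.20, and Plvap, the endothelial one, -0.59. The part of these cells in the lysosomal, antigen presentation and matrix values was not tested.

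**Figure D5:**
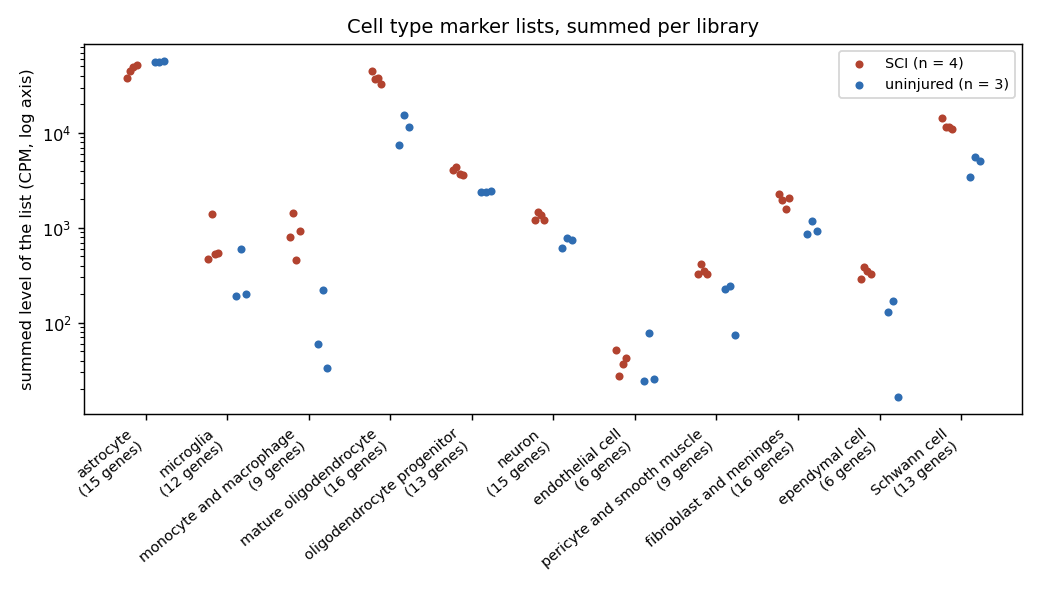
Summed level of each cell type marker list with at least 5 genes in the table (CPM, log y axis), one point per library, SCI (red, n = 4) left of uninjured (blue, n = 3). The mature oligodendrocyte, Schwann cell and macrophage lists lie higher in every SCI library and the astrocyte list lower, while microglia and endothelial lists overlap. The sums include members low in every uninjured library, whose direction is set by that choice, and members in neither class.

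Of the 832 genes with 10 or fewer counts in every uninjured library, 387 had no count in any uninjured library. In 708 of the 832 all 4 SCI libraries held over 100 counts. Such counts were common to most genes of the table, since 10925 to 11020 of all 11115 genes held over 100 in an SCI library. The median level of the 832 after SCI was 7.76 CPM (range 0.144 to 204), whereas genes detected throughout had a median of 53.7 CPM. Of the 832, 94 reached 20 CPM and 18 reached 50 CPM. The limit mattered little: 814 genes had 5 or fewer counts in every uninjured library and 863 had 20 or fewer, and 7 genes had a highest uninjured count of 8 to 10, beside 12 genes at 11 to 13. The deposited tables of other genotypes list only part of these genes, and 516 are not in the WT table, so the following counts hold for the listed ones alone. Of the 316 genes listed in the WT table, 155 had over 10 counts in all 4 uninjured WT libraries and 12 had 10 or fewer in all 4. Of the 489 listed in the Stat3cKO table, 303 had over 100 counts in all 3 uninjured Stat3cKO libraries.

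The 12 genes of this class with the highest CPM after SCI, a ranking that also depends on transcript length, included Wisp2, Osmr and Cxcl10. Wisp2, a matricellular protein, had 26207, 17074, 15070 and 11564 counts after SCI, against 2, 0 and 0 counts in uninjured cord. Osmr, the receptor for oncostatin M, had 9450, 7852, 6519 and 6774 counts after SCI, against 6, 1 and 2 counts in uninjured cord, and the uninjured WT libraries held 356, 1, 355 and 586. Cxcl10 had 12136, 3717, 8750 and 4428 counts after SCI, against 1, 7 and 2 counts in uninjured cord, and the uninjured WT libraries held 328, 159, 32 and 560. Each SCI library thus lay far above the mutant uninjured libraries, which had at most 7 counts. Slc43a3, a purine base transporter, had 13880, 10743, 7373 and 10341 counts after SCI, against 0, 0 and 1 counts in uninjured cord, yet its 4 uninjured WT libraries held 459, 1712, 436 and 1260. Sh3bp4, an endocytic adaptor, had 6877, 7771, 4393 and 2244 counts after SCI, against 0, 2 and 1 counts in uninjured cord, and its uninjured WT libraries held 1008, 1184, 1183 and 2301. Anxa3, an annexin, had no count in uninjured cord and 5586 to 10004 after SCI. With the uninjured group put at 3 counts in all, the ratio was 7424. Ptx3, a pentraxin that binds complement, had 13863, 5261, 3279 and 6087 counts after SCI, against 1, 1 and 1 counts in uninjured cord, a ratio of 6360 (95% exact counting interval 2176 to 30844), and Hspg2, the basement membrane proteoglycan perlecan, had 7673, 7275, 4964 and 7112 counts after SCI, against 1, 0 and 0 counts in uninjured cord. The ratio for Anxa3 and the interval for Ptx3 allow for counting error alone. They do not allow for drops such as those of 3259 genes of neither class. In these, at least 1 uninjured library held 10 or fewer counts and another over 500. The genes were also chosen for few uninjured counts, so neither value bounds the difference between the cells. Col6a2, Mmp2, Rarres2 and the non-coding RNA H19 were the others of the 12.

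Several lists had their members in this class. Of 35 listed cell cycle genes, 16 were low in every uninjured library, where 7.49% of all genes listed were. The 16 included the mitotic genes Mki67, Top2a, Ccnb1, Cdk1 and Plk1. The share over all genes depended on the level after SCI. It was 41.9% under 5 CPM, 26.6% at 5 to 10 CPM and 2.24% at 20 to 50 CPM, and the list was not matched to it by level. Of the 9 cell cycle genes detected throughout, 1 was called higher and 8 were not called. Top2a, the DNA topoisomerase of dividing cells, had 1326, 2029, 1965 and 3200 counts after SCI, against 0, 0 and 0 counts in uninjured cord, and Ube2c, which helps end mitosis, had 1975, 1905, 1193 and 1293 counts after SCI, against 0, 1 and 0 counts in uninjured cord. No uninjured library held more than 1 count of either. Socs3 had 5699, 2426, 2213 and 2953 counts after SCI, against 0, 1 and 0 counts in uninjured cord, and uninjured WT libraries held 0, 0, 3 and 151. Icam1, an adhesion receptor for leukocytes, had 5584, 2052, 1746 and 3000 counts after SCI, against 1, 0 and 1 counts in uninjured cord, and uninjured WT libraries held 0, 1, 0 and 410. The immediate-early gene Egr1 had 5257, 3808, 3252 and 3860 counts after SCI, against 1, 0 and 0 counts in uninjured cord. The myeloid genes Trem2 (1856, 4731, 1413 and 1913 counts after SCI, against 1, 1 and 0 counts in uninjured cord) and Itgb2 (415, 2880, 543 and 1003 counts after SCI, against 0, 5 and 0 counts in uninjured cord) were highest in SCI library 2, the library with the highest macrophage and microglia sums. Trem2 is itself part of the microglia sum, so that match is partly built in. Postn, periostin, had 12747, 2956, 2967 and 3394 counts after SCI, against 2, 0 and 0 counts in uninjured cord, highest in SCI library 1. Gpx8, an endoplasmic reticulum peroxidase, had no count in uninjured mutant cord but 1736 to 2057 counts in every uninjured WT library and 1978 to 4859 after SCI.

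Of the 3579 genes in neither class, 2205 were low in 1 uninjured library, 1244 in 2, and 130 in SCI libraries alone. The test called 27 higher and 1 lower. S100a4, a calcium-binding protein of motile cells, had 10765, 4560, 5808 and 7345 counts after SCI, against 0, 2 and 26 counts in uninjured cord (edgeR adjusted p = 0.00652), and Ifit1, an interferon-induced antiviral protein, had 3930, 2367, 3963 and 1472 counts after SCI, against 14, 1 and 0 counts in uninjured cord (edgeR adjusted p = 0.0108). The 1 lower gene was Ppih, a splicing-associated cyclophilin, with 2, 0, 1 and 0 counts after SCI, against 130, 47 and 1112 counts in uninjured cord (edgeR adjusted p = 0.00952). These 3 were picked after their values were seen, and each was called with any 1 library left out. Lgals3, galectin 3, was not called, although the groups did not overlap. It had 22604, 16810, 11121 and 11864 counts after SCI, against 1680, 2328 and 3 counts in uninjured cord, and it was called without uninjured 3 (log2 2.73, edgeR adjusted p = 0.00744).

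The 4 SCI libraries were not interchangeable. Among the 478 genes called lower, SCI library 1 was the lowest of the 4 in 233, library 2 in 106, library 3 in 46 and library 4 in 93. Among the 272 called higher, library 1 was the highest in 102, library 2 in 85, library 3 in 29 and library 4 in 56. Of 34 astrocyte identity and homeostatic genes in the table, 26 were lowest in SCI library 1, and of 43 collagen, laminin and scar matrix genes 20 were highest in it and 24 lowest in SCI library 3. Of 44 lysosome and phagocytosis genes 26 were highest in SCI library 2, as were 12 of 17 antigen presentation genes and 7 of 9 macrophage markers. Interferon genes were most often highest in SCI library 3 (14 of 32) and lowest in SCI library 4 (19 of 32). The labels give no position, sex or batch to set beside these differences.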

How the data were processed

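RNA bound to tagged astrocyte ribosomes was sequenced from 7 mouse cords, 1 library each, and the authors deposited raw counts per gene for these libraries beside their own log2 fold changes and p-values. Per the submitters' processing notes, the build was mm10 and the tools included edgeR 3.28.0, HTSeq 0.6.0 and STAR 2.4.0j; their settings, strandedness and gene filter are not given in the sources used here, and genes not listed in the deposited table were not analysed here. Groups came from the genotype and treatment labels. The labels give no sex, age or batch. The p-values measure the spread between these libraries, each from 1 mouse, and do not part mouse from library.

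The counts were fitted with edgeR 4.0.16 (R 4.3.3; TMM scaling, quasi-likelihood test) in 1 model of SCI against uninjured over 11109 genes, leaving out genes too low for edgeR's default filter, with Benjamini-Hochberg adjustment over all of them and a threshold of 0.05. Values after ± are standard deviations for CPM and standard errors for log2 fold changes. DESeq2 1.42.0, other scalings, filters and limits, and leaving out each library were tried as alternatives. The edgeR fit was tested on simulated counts with the same spread for every gene. These held no drops to few counts in single libraries, so the test does not cover such drops. Python 3.11.15, pandas 2.3.3, scipy 1.17.1 and matplotlib 3.10.9 did the rest. Gene positions are from GENCODE M21 (10502 of 11115 symbols found) and promoters from RefSeq. Each library held 69518976 counts or more. Even so, in 3259 genes of neither class at least 1 uninjured library held 10 or fewer counts while another held over 500. How much of the spread came from the mice and how much from the libraries was not tested.

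The members and lists were chosen with earlier results of these data known. Genes named in the text were the 12 largest rises and 12 largest falls with groups that did not overlap and a mean of at least 5 CPM, the 12 low genes of highest CPM after SCI, the 2 largest called rises and falls and the member of highest CPM of each list with up to 2 low members, the first 3 measured markers of each cell type and 15 fixed genes. Other list members in the text, such as Hmgcs1, Kcnj10, Nes, Rac1 and Mki67, and the genes S1pr3, S100a4, Ifit1, Ppih, Lgals3, Gap43, Uchl1 and Nefm, were named after their values were seen. Some genes are not reported here.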

Additional observations from a re-analysis of the deposited data

Results flagged for a closer look

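Of 179 genes named by the selection rule, 8 had 1 of the 4 SCI libraries standing apart from the other 3, with a gap to its nearest neighbour that was large against the whole range of the group. Chance marks about 1 in 20 groups in this way. SCI library 1 was the lowest for Sparc, with 8016 CPM against 10064 to 10470 CPM in the others, and the highest for Postn (116 CPM, the others 35.7 to 47.3), Sema3e (17 CPM, the others 4.36 to 6.27) and Cdh5 (16.3 CPM, the others 2.68 to 2.9). SCI library 2 was the highest for Smarcc2 (266 CPM, the others 192 to 201) and Gstm1 (639 CPM, the others 422 to 439). SCI library 4 was the lowest for Gbp3 (21.7 CPM, the others 50.4 to 56.3) and the highest for Aqp4 (4958 CPM, the others 3902 to 3989).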

How the results depend on the processing

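Of the 128 named genes detected throughout, 99 were called; 75 were called in all 7 fits with 1 library left out, 7 in 4 to 6 of them and 17 in 3 or fewer. No named gene called in the fit reported changed sign under any alternative run. DESeq2 called more genes detected throughout, 527 higher and 904 lower, and 909 lower over all genes tested. Fitting only the genes detected throughout left 381 genes higher in all, since the genes low in the uninjured libraries were then not tested. At an adjusted p under 0.01, 215 genes were lower. With 1 library left out, the genes called higher numbered 991 to 1757 and those called lower 302 to 537 over all genes tested, and 190 to 384 and 301 to 529 among genes detected throughout; the 1757 came without uninjured library 1, and the cause was not tested. Other counts stayed within 1.5 times: 1132 and 470 with DESeq2-type size factors in edgeR, 1205 and 338 with TMM from genes detected throughout, 1126 and 479 without the filter, and 1120 and 480 with robust spread. No paired analysis was possible because each mouse gave 1 library and no label ties an SCI mouse to an uninjured one. Total counts of SCI and uninjured libraries overlapped. Genes under 20 CPM gave no call among those detected throughout.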

Other observations

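Antioxidant and iron genes moved in both directions, with 6 of 30 detected throughout higher and 5 lower, where 4.06% and 7.13% of all genes detected throughout were. Gpx1, a glutathione peroxidase, had 491, 310.3, 479.6 and 519 CPM after SCI, against 107, 164 and 46.6 CPM in uninjured cord (log2 2.09 ± 0.41, edgeR adjusted p = 0.0103), all SCI libraries above the uninjured ones. The ferritin chains Fth1 and Ftl1 rose too, with log2 0.86 and 1.72. Gstm1, a glutathione transferase abundant in astrocytes, averaged 483 ± 104 CPM after SCI and 1714 ± 209 CPM in uninjured cord (log2 -1.83 ± 0.18, edgeR adjusted p = 0.00203), and Gsta4 and Gstm5 fell by 1.47 and 1.16 on the log2 scale. Slc7a11, the cystine importer, fell with log2 -1.94, and the call was lost without SCI 1, 2, 3 or 4 (edgeR adjusted p = 0.0552 to 0.0754). Mt1, a metallothionein, had 7021, 4403, 5361 and 6574 CPM after SCI, against 3718, 5547 and 3772 CPM in uninjured cord (log2 0.43 ± 0.22, edgeR adjusted p = 0.343).

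Among 28 chaperone genes 3 rose and 1 fell, and with the other scaling 5 rose. For this list and those that follow, the shares over all genes detected throughout were 4.06% higher and 7.13% lower. Hspb6, a small heat shock protein, averaged 210.0 ± 54.6 CPM after SCI and 56.7 ± 25.6 CPM in uninjured cord (log2 1.89 ± 0.36, edgeR adjusted p = 0.00880), and Canx, the lectin chaperone calnexin, fell with log2 -0.61. In the axon growth and guidance list 3 of 31 rose and 5 fell, but 2 fell with the other scaling, and 2 rose and 2 fell without SCI 4. Rtn4, which encodes the axon growth inhibitor Nogo and is abundant in oligodendrocytes, had 788, 818, 744 and 685 CPM after SCI, against 146, 289 and 199 CPM in uninjured cord (log2 1.85 ± 0.23, edgeR adjusted p = 0.00448), while Robo2, a receptor for Slit guidance cues, averaged 40.3 ± 10.0 CPM after SCI and 127 ± 40.6 CPM in uninjured cord (log2 -1.66 ± 0.32, edgeR adjusted p = 0.00952). Of 24 neural progenitor and developmental genes none rose and 5 fell, but 2 to 5 fell with 1 library left out, 2 of them without SCI 2, and 3 with the other scaling. Fzd1, a Wnt receptor, had 45.3, 46.4, 55.6 and 56.9 CPM after SCI, against 208, 262 and 160.0 CPM in uninjured cord (log2 -2.04 ± 0.22, edgeR adjusted p = 0.00251), every SCI library below every uninjured one. Among 19 lipid carrier and lipid droplet genes 2 rose and 2 fell, 1 to 3 rose with 1 library left out, and 1 fell with the other scaling. Acsl3, which activates fatty acids, averaged 387 ± 87.2 CPM after SCI and 1129 ± 129 CPM in uninjured cord (log2 -1.54 ± 0.20, edgeR adjusted p = 0.00448). Plin3, a lipid droplet coat protein, rose with log2 1.44, and the call was lost without SCI 1, 2, 3 or 4 or uninjured 1 (edgeR adjusted p = 0.0887 to 0.123). Cpt1a, which admits fatty acids to mitochondria, fell with log2 -0.97, and the call was lost without SCI 1, 2, 3 or 4 or uninjured 3 (edgeR adjusted p = 0.0503 to 0.111).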
